A study of Bos taurus with 6 samples.

Results

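Notch signaling passes a message between touching cells. A ligand of the Jagged or Delta-like families on the sending cell binds a Notch receptor on its neighbor, the receptor is cut by ADAM proteases and γ-secretase, and the freed intracellular part joins the DNA-binding factor RBPJ and a Mastermind-like coactivator to switch on HES and HEY repressor genes. In fat, the pathway is known as a regulator of the passage from precursor cell to adipocyte. Here, 10 genes of the pathway were described, namely the receptors NOTCH1, NOTCH2 and NOTCH3, the ligands JAG1, JAG2 and DLL1, the factor RBPJ, and the targets HES1, HEY1 and HEYL. They were chosen by symbol, and all 10 were found among the 23475 genes of the deposited table.

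The cells came from bovine subcutaneous fat of calves and were grown in medium with fetal bovine serum. One group was given an agomir of bta-miR-484, a stabilized RNA duplex used to supply more of that miRNA, and the control group was given the agomir NC, a negative control of the same kind. RNA was taken 48 h after transfection from 3 samples of each group. Breed is not stated in the sources used here, nor whether separate calves gave the 3 samples of a group, so the SD and p-values measure the spread between samples that may be technical. Values are FPKM, that is, fragments scaled by transcript length and by the library's mapped total. FPKM holds no read numbers, and the depth behind each value is unknown.

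The labels call the cells adipocytes, and the study's methods use both that word and preadipocytes, the name of their precursors. All 10 markers of preadipocytes and fibroblasts were above a mean of 0.5 FPKM, led by the collagen gene COL3A1 at a mean of 7623 FPKM, and PDGFRA lay between 162 and 172 FPKM. Of 10 markers of mature adipocytes, 6 were above that mean, the highest being LPL at 3.73 FPKM, and the adipokine genes ADIPOQ and LEP did not exceed 0.197 and 0.0368 FPKM in any library. The values were thus those of the preadipocyte and fibroblast list far more than of the mature list. Since that list covers both cell types, its values do not tell preadipocytes from fibroblasts. Of 9 endothelial markers, EMCN and CLDN5 were listed at 0 in all libraries, VWF was the most abundant at 3.39 FPKM, and the summed level of the list lay between 3.93 and 4.83 FPKM. Of 8 mural markers, 4 were above the mean of 0.5 FPKM, namely ACTA2 at 207, CNN1 at 15.0, CSPG4 at 5.13 and ABCC9 at 2.05 FPKM, and the list summed to between 215 and 245 FPKM. Fibroblasts in culture can also express ACTA2, and the pericyte marker RGS5 was at 0 in all libraries but agomir replicate 3, at 0.0816 FPKM. Leukocyte markers summed to between 7.32 and 8.74 FPKM, led by CD14 at 6.27 FPKM, with the defining marker PTPRC at or below 0.119 FPKM. Skeletal muscle markers summed to at most 0.479 FPKM, with MYOD1 and MYOG at 0, and epithelial markers to at most 0.414 FPKM, with KRT18 at 0.

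NOTCH2 was the predominant Notch receptor of these cells. It was at 85.5, 89.0 and 83.7 FPKM after the agomir against 84.7, 85.0 and 72.8 FPKM after agomir NC. With a mean of 83.5 FPKM over the 6 libraries, NOTCH2 was above 94.7% of the 12422 genes that passed a mean of 0.5 FPKM. NOTCH1, the receptor first described in T cell leukemia, was at 8.52, 8.31 and 8.60 FPKM after the agomir against 8.36, 8.59 and 6.90 FPKM after agomir NC. NOTCH3, known for its part in vascular smooth muscle, was at 3.24, 2.91 and 3.36 FPKM after the agomir against 3.16, 3.30 and 3.01 FPKM after agomir NC. The groups overlapped in all 3 receptors, and agomir NC replicate 3 was the lowest library for NOTCH1 and for NOTCH2. NOTCH4, the receptor known from endothelium and not among the 10 genes, lay between 0.170 and 0.299 FPKM.

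The proportions of the receptors were steady. NOTCH2 made up between 87.5% and 88.8% of the summed FPKM of NOTCH1, NOTCH2 and NOTCH3 in every library, NOTCH1 between 8.29% and 8.99%, and NOTCH3 between 2.90% and 3.64%. The low values of agomir NC replicate 3 therefore touched NOTCH1 and NOTCH2 alike, with a ratio of NOTCH2 to NOTCH1 of 10.6 against a range of 9.73 to 10.7 over the 6 libraries. The summed receptor level was 97.7 ± 2.30 FPKM after the agomir and 92.0 ± 7.98 FPKM after agomir NC (SD, n = 3 each).

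JAG1 was the main ligand of the 3. It was at 5.02, 4.58 and 4.88 FPKM after the agomir against 4.85, 4.44 and 4.64 FPKM after agomir NC. DLL1, a ligand of the Delta-like family, was at 0.990, 0.870 and 0.898 FPKM after the agomir against 0.805, 0.877 and 1.12 FPKM after agomir NC. JAG2, the second Jagged ligand, was listed at 0 in 5 libraries and at 0.0235 FPKM in agomir NC replicate 1. No ligand set the groups apart, and JAG1 accounted for between 80.6% and 85.4% of the summed ligand level. Of 5 other ligand genes, DNER was the most abundant, at a mean of 0.262 FPKM, and DLK2 lay between 0.135 and 0.423 FPKM. DLL3 did not exceed 0.0950 FPKM, and DLL4, the ligand known from sprouting vessels, was listed above 0 in agomir NC replicate 1 only, at 0.0159 FPKM. DLK1, the preadipocyte factor that resembles a Notch ligand, was listed at 0 in all 6 libraries. Per length, the summed receptor level was between 14.4 and 18.4 times the summed level of JAG1, JAG2 and DLL1.

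RBPJ, which carries the Notch signal at the DNA, was the second most abundant of the 10 genes. It was at 39.6, 36.8 and 38.3 FPKM after the agomir against 34.9, 37.9 and 35.9 FPKM after agomir NC, above 87.2% of all genes tested. Agomir replicate 2 lay below agomir NC replicate 2, so that the groups overlapped.

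The targets were low by comparison and differed in pattern. HES1, the classical Notch target, was at 3.12, 3.41 and 3.05 FPKM after the agomir against 4.59, 2.63 and 3.12 FPKM after agomir NC, so that the agomir NC group held both the highest and the lowest value. HEY1 was at 1.02, 0.997 and 1.02 FPKM after the agomir against 0.582, 0.843 and 0.773 FPKM after agomir NC. HEY1 was the gene of the 10 whose groups did not overlap. HEYL, a relative of HEY1, was at 0.381, 0.327 and 0.306 FPKM after the agomir against 0.320, 0.482 and 0.270 FPKM after agomir NC, with overlap. The library with the highest HES1, agomir NC replicate 1, had the lowest HEY1. The ratio of HES1 to HEY1 was 7.89 there, 3.12 and 4.04 in the other agomir NC libraries, and 3.06, 3.42 and 2.97 in the agomir libraries.

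**Figure D1:**
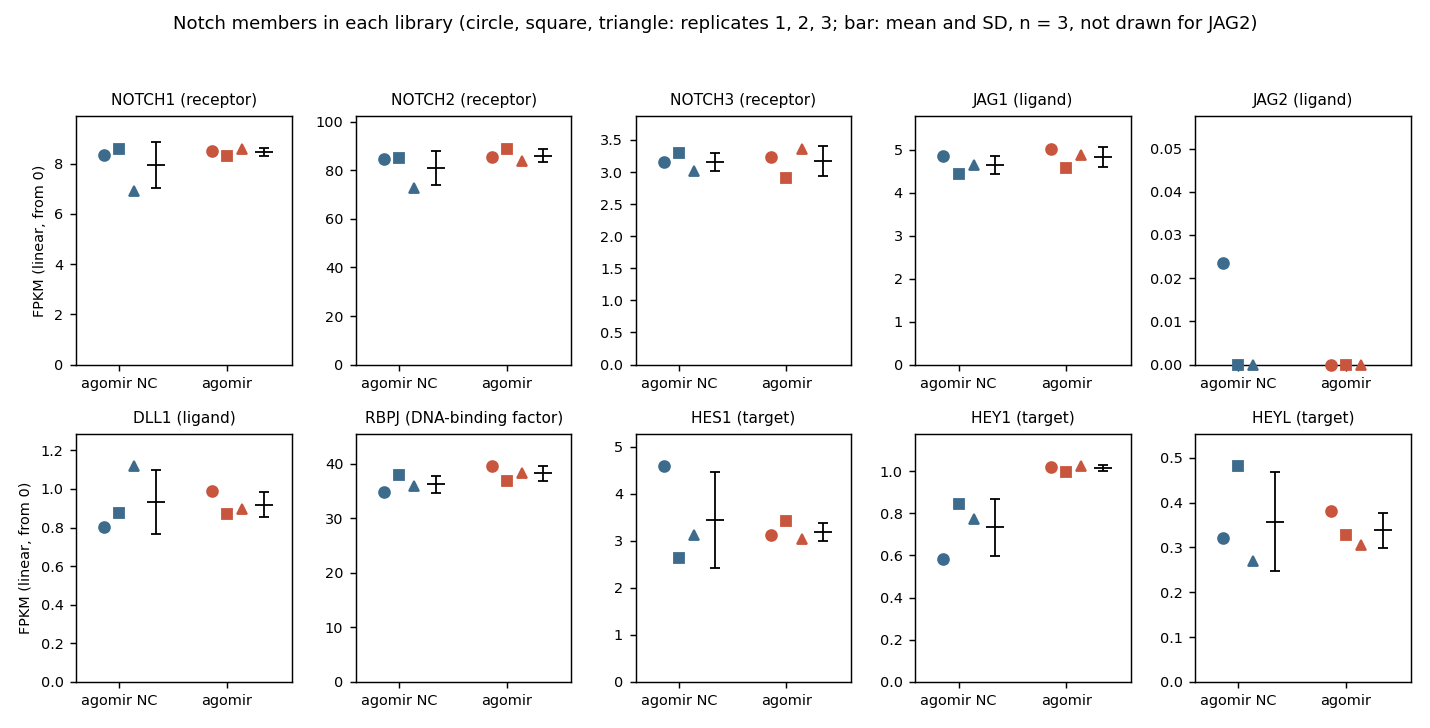
FPKM of the 10 Notch genes in each of the 6 libraries, on linear axes from 0 with a scale for each gene; symbols are replicates and the bars are mean and SD (n = 3 each), not drawn for JAG2. The groups overlap in all panels but that of HEY1, where the agomir libraries lie between 0.997 and 1.02 FPKM and the agomir NC libraries between 0.582 and 0.843 FPKM.

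By mean level over the 6 libraries, the order was NOTCH2, RBPJ, NOTCH1, JAG1, HES1, NOTCH3, DLL1, HEY1, HEYL and JAG2. The ranges of JAG1 and HES1 overlapped, as did those of HES1 and NOTCH3 and those of DLL1 and HEY1 when all libraries were pooled. Within each library, however, JAG1 was above HES1. The ranges of the other neighbors were separate. The widest step between genes above 0 in every library was the 4.53-fold one from RBPJ to NOTCH1.

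The comparison of agomir with agomir NC asks whether the Notch genes respond when bta-miR-484 is raised. No call was made for any of them. The groups were compared with limma on log2(FPKM + 0.5) over the 12422 genes, a scale that understates the change of low genes, with Benjamini-Hochberg adjustment over these genes. Of the 10 genes, 8 passed the filter on low values and JAG2 and HEYL did not. At an adjusted p of 0.05, 0 of the 8 were called, where 0.00805% of all genes tested were (1 gene). At an unadjusted p of 0.05 the count was also 0, against 6.63% of all genes tested that were higher and 4.31% that were lower. A count of 0 among 8 genes is near those shares. Fewer cells of a type and less RNA per cell cannot be told apart in such bulk samples.

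For each receptor the 95% interval of the fold change included 0. NOTCH2 was at a log2 fold change of 0.093 (standard error 0.062, limma's adjusted p = 0.627), with a 95% interval of -3.21% to 17.5% on the scale of FPKM + 0.5. NOTCH1 was also at a log2 fold change of 0.093 (standard error 0.087), with an interval of -6.81% to 22.1%. Without agomir NC replicate 3 the log2 fold change was 0.020 for NOTCH2 and -0.00015 for NOTCH1, so that most of either difference came with that library. NOTCH3 was at 0.0036 (standard error 0.094), with an interval of -13.3% to 16.0%.

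For the ligands and RBPJ the limits were similar. The log2 fold change of JAG1 was 0.050 (standard error 0.080), with an interval of -8.58% to 17.3%. That of DLL1 was -0.0091 (standard error 0.14), with an interval of -19.8% to 23.2%. With each library left out in turn, JAG1 ranged from 0.021 to 0.085 and DLL1 from -0.074 to 0.082. RBPJ was at a log2 fold change of 0.078 (standard error 0.051, limma's adjusted p = 0.622), with an interval of -2.54% to 14.3%. Its range with each library left out was 0.052 to 0.11. For these genes a change of 1.5-fold was outside the interval, which does not show that they were unchanged.

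Among the targets, HEY1 came nearest to the threshold. Its mean was 1.01 ± 0.0145 FPKM after the agomir and 0.733 ± 0.135 FPKM after agomir NC (SD, n = 3 each), 38.3% higher. The log2 fold change was 0.30 (standard error 0.14), with limma's unadjusted p at 0.0548 and adjusted p at 0.467. With each library left out, that fold change was lowest without agomir NC replicate 1, at 0.21, and highest without agomir NC replicate 2, at 0.37. Groups that do not overlap, with the agomir higher, were found in 10.9% of all genes tested, so 1 of 8 is near the background. For HEY1, p was 0.1 in the exact permutation test, two-sided, the smallest that 3 libraries against 3 allow. The unadjusted p of HEY1 was under 0.05 in 3 of 13 other settings, 0.0108 without the variance trend being the lowest, and its adjusted p stayed between 0.394 and 0.670. HES1 was at a log2 fold change of -0.067 (standard error 0.16), which was 0.13 without agomir NC replicate 1 and -0.22 without agomir NC replicate 2. HEYL, below the filter, was at a log2 fold change of -0.026 (standard error 0.11) in the fit without a filter.

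The spread within a group was uneven for several genes, not for the targets alone. The coefficient of variation of HES1 was 6.12% with the agomir and 29.6% with the agomir NC, and that of HEY1 was 1.43% and 18.4%. For NOTCH1 it was 1.77% and 11.6%, and for DLL1 6.84% and 17.7%. It was smaller with the agomir in 7 of the 9 genes listed above 0 in every library, the exceptions being NOTCH3 and JAG1, and in 54.5% of all genes tested. With 3 libraries a group, the difference in spread was not tested.

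The rest of the pathway was taken from a list of 62 other genes grouped by role, of which 44 passed the filter. At an adjusted p of 0.05, 0 of the 44 were called, with limma's adjusted p at 0.252 or above. At an unadjusted p of 0.05, 8 were higher with the agomir, against 6.63% of all genes tested, and 1 was lower, against 4.31%. The median log2 fold change of the 44 genes was 0.063, beside 0.013 for all genes tested. Groups that do not overlap were found in 13 of the 44 genes with the agomir higher, against 10.9% of all genes tested, and in 2 with the agomir lower, against 6.36%. The 8 and 1 became 5 and 3 under quantile normalization and 7 and 2 under median-ratio scaling. Among all genes tested, 824 were higher and 535 lower in the reported setting. These counts were 696 and 629 under quantile normalization and 673 and 688 under median-ratio scaling. Leaving out a library gave 3 and 2 without agomir replicate 2, 4 and 1 without agomir replicate 3, and 7 and 4 without agomir replicate 1. It gave 4 and 3 without agomir NC replicate 1, 9 and 1 without agomir NC replicate 2, and 5 and 1 without agomir NC replicate 3. In the fits with a library left out, between 4.47% and 6.68% of all genes tested were higher and between 3.08% and 4.80% were lower.

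Of the machinery that cuts the receptor, all 8 genes passed the filter and 0 had an unadjusted p under 0.05, against 6.63% of all genes tested that were higher and 4.31% that were lower. The most abundant was NCSTN, the γ-secretase subunit nicastrin, at 49.9 ± 2.29 FPKM after the agomir and 53.5 ± 2.12 FPKM after agomir NC (SD, n = 3 each). The proteases ADAM10 and ADAM17 were at means of 43.8 and 48.7 FPKM over the 6 libraries. The agomir libraries were all above the agomir NC libraries for ADAM10 and ADAM17, but by log2 fold changes of only 0.10 and 0.067, which did not pass the test, and 10.9% of all genes tested had such groups. All 8 genes were thus listed well above 0, and 3 of them above RBPJ.

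Of the enzymes that put sugars on the receptor, 4 were tested, of which 1 was higher and 1 lower at an unadjusted p of 0.05, against 6.63% and 4.31% of all genes tested. RFNG, the most abundant fringe gene, was at 23.6, 25.2 and 24.2 FPKM after the agomir against 27.0, 27.6 and 27.2 FPKM after agomir NC. All 3 agomir values were under the agomir NC range, with a log2 fold change of -0.16 (standard error 0.049) and limma's unadjusted p at 0.00804. POGLUT1, an O-glucosyltransferase, was at 5.18, 7.27 and 5.38 FPKM after the agomir against 4.77, 4.80 and 4.75 FPKM after agomir NC. The log2 fold change of POGLUT1 was 0.27 (standard error 0.12), but 0.13 without agomir replicate 2. LFNG was at a mean of 9.71 FPKM with overlapping groups, POFUT1 overlapped too, and MFNG was listed at 0 in every library.

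For the trafficking of ligand and receptor, 1 of 10 genes tested was higher at an unadjusted p under 0.05, against 6.63% of all genes tested. MIB1, the ubiquitin ligase by which ligands are taken up in the sending cell, was at 20.8 ± 1.04 FPKM after the agomir and 20.02 ± 2.03 FPKM after agomir NC, and NUMB, an inhibitor that sends receptors to degradation, was at 21.2 ± 1.37 and 20.1 ± 0.408 FPKM (SD, n = 3 each). DTX2, a Deltex ubiquitin ligase, was at 4.16, 5.00 and 4.51 FPKM after the agomir against 3.87, 3.92 and 3.83 FPKM after agomir NC. Its groups did not overlap, with a log2 fold change of 0.21 (standard error 0.089), but 0.14 without agomir replicate 2. NRARP, a feedback inhibitor that Notch itself induces, did not exceed 0.309 FPKM.

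Among the nuclear partners of RBPJ, 4 of 19 genes tested had an unadjusted p under 0.05, all higher with the agomir, against 6.63% of all genes tested. MAML1, the coactivator of the Mastermind-like family, was at 14.7, 16.5 and 16.0 FPKM after the agomir against 14.2, 13.0 and 12.8 FPKM after agomir NC. SNW1, a coactivator also known in splicing, was at 35.9, 38.6 and 37.6 FPKM after the agomir against 32.2, 32.4 and 35.6 FPKM after agomir NC. Both coactivators were above the agomir NC range in every agomir library, with log2 fold changes of 0.23 (standard error 0.067) and 0.16 (standard error 0.055). Of the 7 coactivator genes tested, 4 had groups that do not overlap with the agomir higher, against 10.9% of all genes tested, and 1 with the agomir lower, against 6.36%. The latter was KAT2A, between 8.61 and 9.40 FPKM after the agomir against 9.57 to 10.4 FPKM after agomir NC. The corepressor genes NCOR1 and TLE3 were also higher, by log2 fold changes of 0.17 (standard error 0.066) and 0.18 (standard error 0.061), although that of NCOR1 was 0.10 without agomir NC replicate 3. NCOR1 was at 20.1 FPKM in that library and at 22.6 FPKM or more in the others. HDAC1, the most abundant corepressor, was at 50.7 ± 0.343 and 50.8 ± 2.08 FPKM (SD, n = 3 each), with overlap and a log2 fold change of -0.0011. None of the 4 genes passed the adjusted threshold, with limma's adjusted p between 0.310 and 0.406.

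Other genes known as Notch targets were mostly near 0. Of 9 listed, 3 were tested, and 2 were higher at an unadjusted p of 0.05, against 6.63% of all genes tested, both with groups that do not overlap, against 10.9%. HES4, HES5, HES6, HES7 and HEY2 did not exceed 0.214 FPKM in any library, and HELT was listed at 0. HES2 was at a mean of 2.12 FPKM with overlapping groups. CCND1, which encodes cyclin D1 of the G1 phase and answers to many pathways besides Notch, was at 32.9, 38.6 and 34.8 FPKM after the agomir against 29.0, 30.1 and 25.7 FPKM after agomir NC. All agomir libraries were above all agomir NC libraries, by 25.3% in the means. The log2 fold change of CCND1 was 0.32 (standard error 0.075), with limma's unadjusted p at 0.00179 and adjusted p at 0.252, the lowest of the list. MYC, a growth regulator that likewise has many inputs, was at 11.6, 11.9 and 11.8 FPKM after the agomir against 10.1, 10.5 and 10.8 FPKM after agomir NC, and its groups did not overlap either (log2 fold change 0.16, standard error 0.059). Over the 14 other settings, CCND1 ranged from 0.26 to 0.37 and MYC from 0.14 to 0.18, and neither passed an adjusted p of 0.05.

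**Figure D2:**
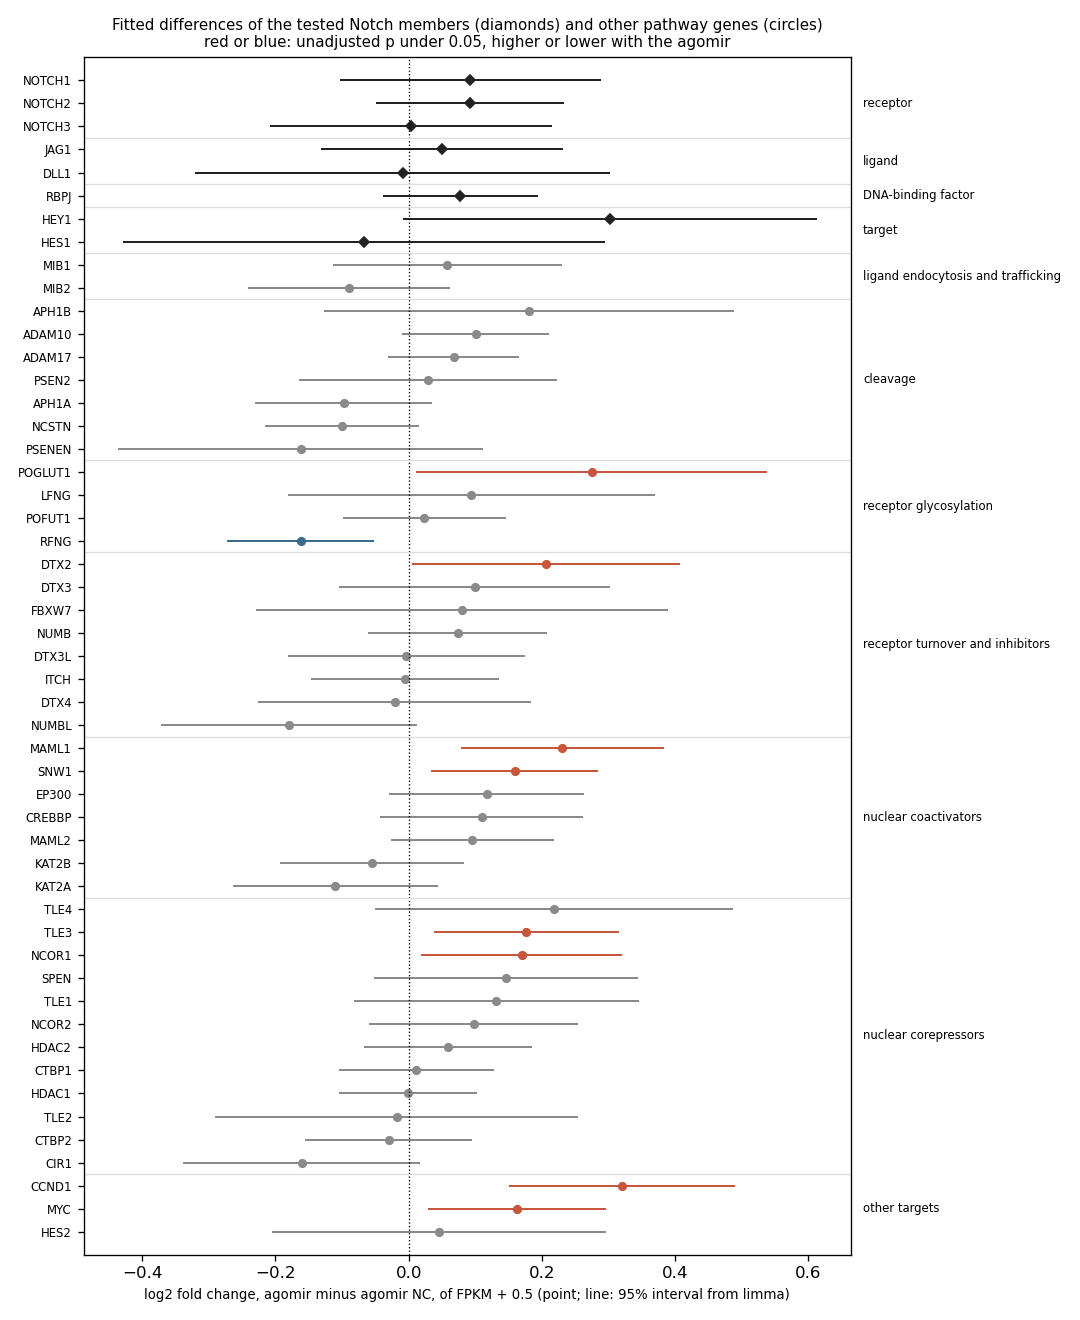
Log2 fold change of agomir over agomir NC on the FPKM + 0.5 scale, with its 95% interval from limma, for the 8 Notch genes (diamonds) and 43 of the 44 other pathway genes (circles) that passed the filter, ordered by role. Intervals of the 8 genes all include 0, and those of 8 pathway genes lie above it (red) and that of RFNG below it (blue) before adjustment for the number of genes tested.

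Some cell type markers also passed an unadjusted p of 0.05, and none an adjusted one. Of the preadipocyte and fibroblast markers, 2 of 10 were lower at an unadjusted p under 0.05, against 4.31% of all genes tested, NT5E with a log2 fold change of -0.25 and DCN with one of -0.12, and the summed level of the list lay between 23359 and 24535 FPKM. Of the 6 mature adipocyte markers tested, 1 was higher, against 6.63% of all genes tested, and 1 lower, against 4.31%. They were PPARG with a log2 fold change of 0.23 and FABP4 with one of -0.49, with the summed level between 12.3 and 13.9 FPKM. None of the endothelial, mural or leukocyte markers that passed the filter was under that p. The part of these markers in the values of the Notch genes was not tested.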

How the data were processed

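RNA from 3 samples with the agomir and 3 with the agomir NC had been sequenced on an Illumina HiSeq platform. The authors deposited FPKM values for 23475 genes in 6 columns, all used here. The submitters' processing notes name fastp, HISAT2, StringTie and the build ARS-UCD1.2, without versions. Strand handling is not given in the sources used here, so reads from overlapping or antisense genes could be shared. No coordinates are given, since the gene table used here is of another build, and no sequences, since none were among the sources used.

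From the deposited FPKM, genes averaging 0.5 or more over the 6 libraries were put on a log2 scale after a pseudocount of 0.5 was added. limma 3.58.1 in R 4.3.3 compared the groups with a variance trend, two-sided, and with Benjamini-Hochberg adjustment over all 12422 genes. A gene was called at an adjusted p of 0.05. Counts at an unadjusted p of 0.05 are given beside it. Single genes were compared by the exact permutation test over 20 labelings. The script was tested on simulated data. The 10 genes, the pathway and marker lists and the tests were chosen with earlier results of these data known. Genes were named by rule: the 10 genes, the most abundant gene of each role, those of the list with an unadjusted p under 0.05, and NOTCH4, DLL4 and DLK1; others named were chosen after their values were seen. Of 54 markers, PAX7 was not analysed here. The planned description of promoter motifs, proteins and the bta-miR-484 seed was not made, for want of sequences.

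FPKM of a library summed to between 365977 and 379361, the highest being agomir NC replicate 3. Log2 values of libraries of a group correlated across genes at 0.9928 to 0.9937, and those of different groups at 0.9912 to 0.9930. The 14 alternatives were quantile normalization, median-ratio scaling, a filter at a mean of 1 FPKM, no filter, pseudocounts of 0.1 and 1, a replicate block, no variance trend, and each library left out.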

Additional observations from a re-analysis of the deposited data

How the results depend on the processing

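Of 110 values of the Notch genes tested in other settings, 100 had the same sign and 10 another, none of them past the adjusted threshold. All 126 values of the 9 pathway genes with an unadjusted p under 0.05 kept their direction. Those 9 were picked by that p in these same libraries, so their kept signs are no separate support. Limma's unadjusted p stayed under 0.05 in all 14 settings for RFNG, MAML1 and CCND1. It did so in 6 settings for DTX2, 7 for POGLUT1 and 9 to 12 for the others. NOTCH3, at 0.0036, was -0.0095 under median-ratio scaling and -0.0065 under quantile normalization. With each library left out, it ranged from -0.035 to 0.056, NOTCH1 from -0.00015 to 0.15, DLL1 from -0.074 to 0.082 and HES1 from -0.22 to 0.13. No Notch gene and no listed pathway gene passed an adjusted p of 0.05 in any setting. At an unadjusted p under 0.05, HEY1 alone passed without a filter (1 of 10, against 5.23% of all genes tested that were higher). It also passed alone with no variance trend (1 of 8, against 6.12%) and without agomir NC replicate 2 (1 of 8, against 5.28%). The count thus ranged from 0 to 1 over libraries left out. Of the 44 pathway genes, 8 higher and 1 lower became 5 and 3 under quantile normalization, against 696 and 629 of all 12422 genes tested. Under median-ratio scaling 7 were higher and 2 lower, against 5.42% and 5.54% of all genes tested. Without a filter 58 pathway genes were tested, of which 9 were higher and 2 lower, against 5.23% and 3.45%. With a library left out, 3 to 9 of the 44 were higher and 1 to 4 lower. In those fits, 4.47% to 6.68% of all genes tested were higher and 3.08% to 4.80% lower. Over all genes, the 1 gene past the adjusted threshold became 0 without a filter, 0 when no variance trend was fitted and 0 with the replicate block, and 0 to 2 with a library left out. At those counts of 0, limma's unadjusted p was under 0.05 for 1604, 1249 and 1260 genes. The 824 genes higher and 535 lower at an unadjusted p were 673 and 688 under median-ratio scaling and 696 and 629 under quantile normalization. What moved these counts between settings was not tested.

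Replicate numbers 1 to 3 occur in both groups. Deviations from the group means correlated across genes at -0.051, 0.053 and 0.039 for same-numbered libraries. For libraries of other numbers the range was -0.109 to 0.072. Such values cannot show whether same-numbered samples share a calf or a batch, which is not stated in the sources used here. With the replicate block, 7 pathway genes were higher and 1 lower, against 5.94% and 4.20% of all genes tested. Depth is unknown, so the number of reads behind the low values of DLL1, HEY1, HEYL and JAG2 cannot be given.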

Other observations

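The genes most like NOTCH2 and HES1 across the libraries were found among 11251 other genes with a symbol, by the root mean square difference of log2(FPKM + 0.5) over the 6 libraries after each gene was centered and divided by its SD. For NOTCH2 these were FAT1, BAZ1B and a gene listed as ARHGEF12-2, at differences of 0.0817, 0.115 and 0.116 SD, where the median gene was at 1.28 SD. FAT1, an atypical cadherin, was at 50.0, 52.0 and 49.3 FPKM after the agomir against 49.5, 49.2 and 41.3 FPKM after agomir NC. Agomir NC replicate 3 was its lowest library, as follows from its choice by likeness to NOTCH2. For HES1 they were TMEM179B, OTOP1 and SPEF1, at 0.118, 0.157 and 0.170 SD. TMEM179B was at 8.21, 8.68 and 7.98 FPKM after the agomir against 10.02, 7.52 and 7.99 FPKM after agomir NC, highest in agomir NC replicate 1 and lowest in agomir NC replicate 2, as HES1 was. With 6 libraries and so many genes, patterns this close are a description of these libraries only.

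Agomir NC replicate 3, low in NOTCH1, NOTCH2 and NCOR1, was not low throughout. It was the lowest agomir NC library in 17 of the 52 Notch and pathway genes tested and in 30.7% of all genes tested.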
